A study of Mus musculus with 8 samples.

Results

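The Oas antiviral synthetase family was followed here through 8 of its genes (Oas1a, Oas1b, Oas1c, Oas1g, Oas2, Oas3, Oasl1 and Oasl2), taken by symbol from a table of 31574 mouse genes. All 8 were found, and all 8 counted as above the floor, the lowest measurable value, in every library. A floor was seen only where 2 or more libraries shared a gene's lowest value, so a single library at the floor would be missed. RNA was sequenced from c-kit+ acute myeloid leukaemia cells of C57BL/6 mice, taken from the bone marrow of femur and tibia 7 days after treatment. The 8 libraries form 4 groups of 2: Ezh1-/- Ezh2-/- cells after tamoxifen (Ezh1-null tamoxifen), Ezh1-/- Ezh2+/+ cells after corn oil (Ezh1-null oil), Ezh1+/+ Ezh2-/- cells after tamoxifen (Ezh1-present tamoxifen) and Ezh1+/+ Ezh2+/+ cells after corn oil (Ezh1-present oil). The design text calls the oil-treated Ezh2 alleles flox/flox and the tamoxifen-treated ones Δ/Δ, so by that text every group carries or carried a floxed Ezh2, and all sample titles begin with Moz. The tamoxifen dose was 10 mg/kg/day, dissolved in corn oil and injected into the peritoneum 5 times. Tamoxifen treatment and Ezh2 deletion coincide in every library, so they cannot be told apart, and the driver of the Cre is not given in the sources used here. The labels do not say that the 2 libraries of a group are separate animals or separate leukaemias, so each p-value measures only the spread between these libraries, which may be technical. An Ezh1 genotype may also be its own leukaemia, which cannot be told apart from the genotype.

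Oas enzymes bind double-stranded RNA, such as that of a replicating virus, and then join ATP into short chains with 2′-5′ links, called 2-5A. These chains are a signal that leads to the breakdown of cellular and viral RNA. Oas genes are classical interferon-stimulated genes: interferon binding to its receptor leads to assembly of the transcription factor ISGF3, of which Irf9 and Stat2 are subunits, and ISGF3 binds a repeated GAAA motif near gene starts. Mice have a cluster of Oas1 genes beside Oas2 and Oas3, and a separate pair of Oas-like genes, Oasl1 and Oasl2, whose proteins carry ubiquitin-like domains. Ezh1 and Ezh2 are alternative catalytic subunits of Polycomb repressive complex 2, which methylates lysine 27 of histone H3 and is known for gene silencing.

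The 8 genes lie in 2 places on chromosome 5 of mm10 (GRCm38). Oasl2 (114896934 to 114912245) and Oasl1 (114923240 to 114937911) lie on the plus strand. Oas2 (120730333 to 120749848), Oas3 (120753098 to 120777659) and Oas1c (120800199 to 120812514) lie on the minus strand, Oas1b (120812635 to 120824160) on the plus strand, and Oas1g (120876142 to 120887598) and Oas1a (120896257 to 120907525) on the minus strand. RefSeq promoter windows of GRCm38.p6, from 250 bases before to 50 bases after a start, were at hand for 6 of the 8 members: Oas1a, Oas1g, Oas1c, Oas3, Oasl1 and Oasl2. They are shown because the windows differ in the ISGF3-like motif. Each printed stretch is the 150 bases before the start, read 5′ to 3′ on the gene's own strand. Capitals mark GAAANNGAAA or, on the other strand, TTTCNNTTTC.
Oas1a, chr5:120907526-120907675, minus strand: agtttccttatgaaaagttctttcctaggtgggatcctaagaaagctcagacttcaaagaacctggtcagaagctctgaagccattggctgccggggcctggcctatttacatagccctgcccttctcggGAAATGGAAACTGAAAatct
Oas1g, chr5:120887614-120887763, minus strand: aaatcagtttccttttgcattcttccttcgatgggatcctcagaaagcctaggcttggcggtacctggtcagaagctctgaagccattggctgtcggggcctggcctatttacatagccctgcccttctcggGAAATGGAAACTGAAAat
Oas1c, chr5:120812515-120812664, minus strand: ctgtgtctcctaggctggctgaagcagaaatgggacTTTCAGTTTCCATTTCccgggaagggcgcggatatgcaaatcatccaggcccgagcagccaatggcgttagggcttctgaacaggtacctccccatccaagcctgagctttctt
Oas3, chr5:120777660-120777809, minus strand: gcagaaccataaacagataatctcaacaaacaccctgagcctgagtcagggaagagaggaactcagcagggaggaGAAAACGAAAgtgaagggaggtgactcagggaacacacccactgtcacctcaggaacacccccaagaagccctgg
Oasl2, chr5:114896784-114896933, plus strand: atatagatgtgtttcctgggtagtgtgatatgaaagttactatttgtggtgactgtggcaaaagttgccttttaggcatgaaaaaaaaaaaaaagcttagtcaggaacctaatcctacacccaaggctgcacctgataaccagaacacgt
Oasl1, chr5:114923090-114923239, plus strand: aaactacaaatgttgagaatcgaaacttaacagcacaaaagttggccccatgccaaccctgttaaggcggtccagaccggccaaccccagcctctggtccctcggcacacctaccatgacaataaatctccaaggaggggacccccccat

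The motif, searched on both strands with overlaps allowed, was in the windows of 4 of these 6 members and in 1131 of all 32851 RefSeq windows of that length (3.44%). Oas1a and Oas1g hold the same 16 bases, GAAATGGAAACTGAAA, in which 2 matches overlap. The run ends 5 bases before the RefSeq start of Oas1a and 3 bases before that of Oas1g. The printed stretch of Oas1g ends at 120887614, so its RefSeq start is not the deposited start, 120887598. The printed stretches of Oas1a and Oas1g were identical at 120 of 148 aligned bases (81.1%). The Oas1c window holds the same run on the other strand, TTTCAGTTTCCATTTC, at chr5:120812613-120812628. There it lies in the 120 bases between the deposited starts of Oas1c and Oas1b, which point away from each other, and 6 bases separate it from the start of Oas1b. On either strand the run was in 7 windows in all, the other 4 being 2 each of Apol9a and Apol9b. Oas3 has a single match, GAAAACGAAA, whose first base lies 75 bases before the start. The Oasl1 and Oasl2 windows hold no match, which says only that these letters are not in these 300 bases. A match is a description of the sequence, not a measured binding site.

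Values per library are log2 normalized expression, deposited with each gene's median across libraries set to 0. A value of 1 thus means 2-fold above the gene's median, and the level of one gene cannot be set against that of another. Changes are differences of group means on this log2 scale, tested with limma over 18051 measurable genes, given ± the standard error, and called where the Benjamini-Hochberg adjusted p lay under 0.05. Depth behind each value is unknown, but the number of genes above the floor was similar, at 16393 to 17239 per library. Ezh1 itself was at -1.61 and -1.55 in Ezh1-null tamoxifen and -1.75 and -1.94 in Ezh1-null oil libraries, against 1.55 and 1.63 in Ezh1-present tamoxifen and 1.71 and 1.66 in Ezh1-present oil libraries. Ezh2 was at -0.53 and -0.56 in Ezh1-null tamoxifen, against -0.12 and -0.03 in Ezh1-null oil, and at 0.09 and 0.03 in Ezh1-present tamoxifen, against 0.25 and 0.23 in Ezh1-present oil. Neither Ezh2 difference between tamoxifen and oil passed the threshold (adjusted p = 0.0554 without and 0.293 with Ezh1). The value covers the whole gene, and which exons are deleted is not stated in the labels, so it is a weak check of the deletion. Kit, the receptor used for selection, counted as above the floor in all 8 libraries. It was at 0.25 and 0.38 in Ezh1-null tamoxifen, 0.53 and 0.64 in Ezh1-null oil, -0.71 and -0.25 in Ezh1-present tamoxifen and -0.64 and -0.71 in Ezh1-present oil.

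The Oas family was highest in the Ezh1-null tamoxifen libraries, the only ones whose cells are labelled as lacking both Ezh1 and Ezh2. Averaged over the 8 genes, the log2 value was 1.40 and 1.54 in Ezh1-null tamoxifen and -0.21 and -0.30 in Ezh1-null oil, and -0.07 and 0.28 in Ezh1-present tamoxifen and -0.65 and -0.63 in Ezh1-present oil libraries. For each of the 8 genes, both Ezh1-null tamoxifen libraries lay above all 6 other libraries. The share of all genes with such an order was not counted, and the shares for single pairs of groups are given below. In the family average the other 3 groups were closer together, and their order differed among the genes. For Oasl1 they were not closer. Its means were 1.27 in Ezh1-null tamoxifen, 0.42 in Ezh1-present tamoxifen, -0.33 in Ezh1-present oil and -1.21 in Ezh1-null oil.

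**Figure D1:**
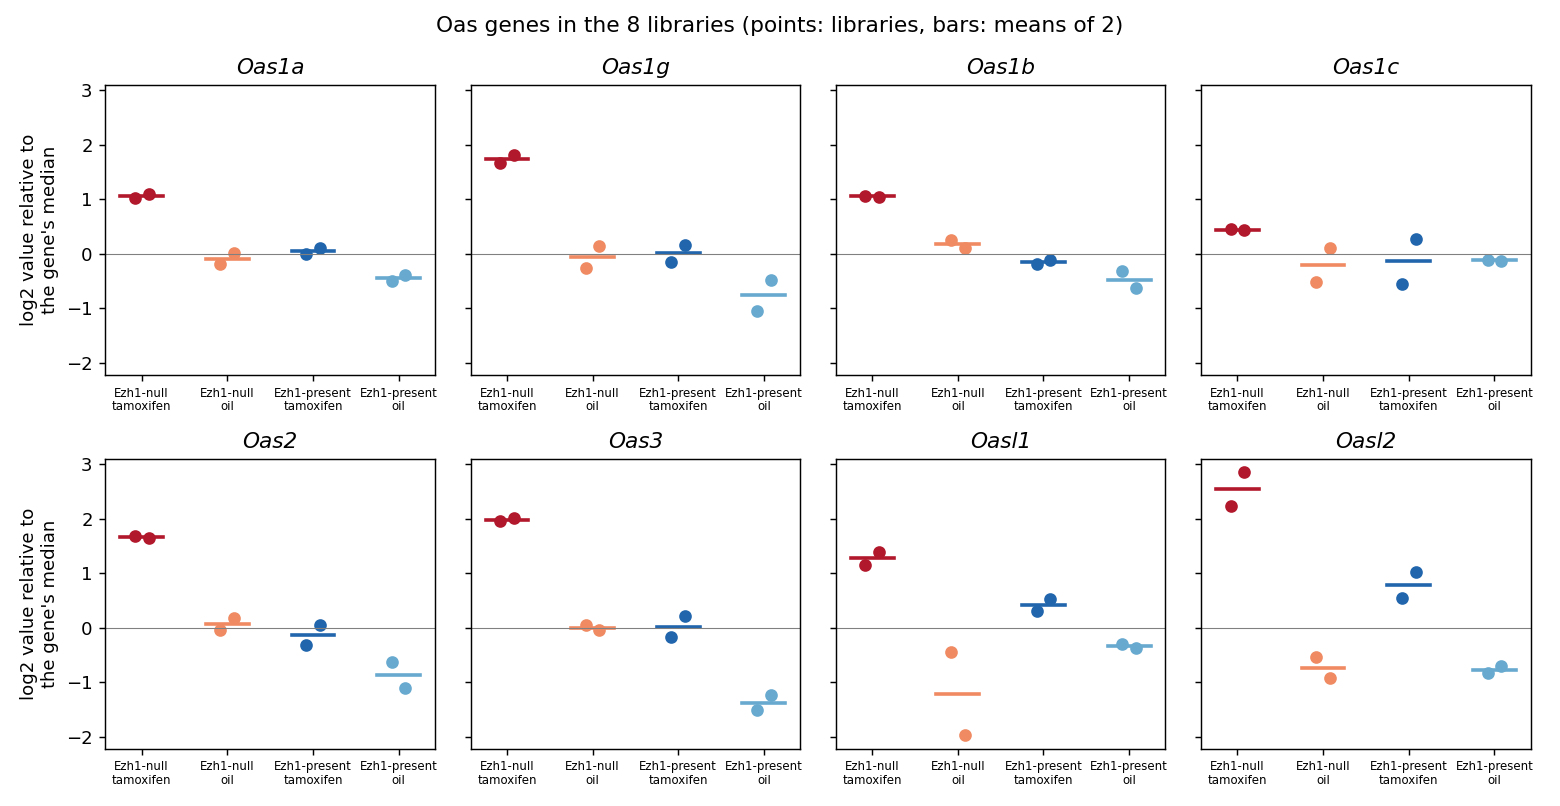
Log2 value relative to the gene's median over the 8 libraries (y axis) for each of the 8 Oas genes (panels) in the 4 groups (x axis); points are single libraries and bars the means of 2. The Ezh1-null tamoxifen libraries are the highest in all 8 panels, from 0.44 in Oas1c to 2.86 in Oasl2, and Ezh1-null oil replicate 2 stands low for Oasl1, at -1.98.

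The canonical synthetases, which make 2-5A, are described first. Oas3, the longest of the enzymes, was at 1.96 and 2.01 in Ezh1-null tamoxifen and 0.05 and -0.05 in Ezh1-null oil, and at -0.17 and 0.21 in Ezh1-present tamoxifen and -1.51 and -1.23 in Ezh1-present oil libraries. Its values form 3 steps: the Ezh1-present oil libraries are lowest, the groups with tamoxifen alone and with Ezh1 loss alone overlap in the middle, and the Ezh1-null tamoxifen libraries are highest. Oas2, a synthetase with a doubled catalytic unit, was at 1.68 and 1.65 in Ezh1-null tamoxifen and -0.05 and 0.18 in Ezh1-null oil, and at -0.32 and 0.05 in Ezh1-present tamoxifen and -0.62 and -1.10 in Ezh1-present oil. The same 2 groups overlap in the middle for Oas2.

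Oas1a and Oas1g are the Oas1 genes known to encode active enzymes in mice. Oas1g was at 1.66 and 1.81 in Ezh1-null tamoxifen and -0.25 and 0.14 in Ezh1-null oil, and at -0.14 and 0.17 in Ezh1-present tamoxifen and -1.04 and -0.48 in Ezh1-present oil libraries. Oas1a was at 1.03 and 1.11 in Ezh1-null tamoxifen and -0.19 and 0.01 in Ezh1-null oil, and at -0.01 and 0.12 in Ezh1-present tamoxifen and -0.50 and -0.39 in Ezh1-present oil. Both genes share the order of Oas3 and Oas2, with a narrower range in Oas1a. Their transcripts are close copies: 57.6% of the 50-base stretches of Oas1a transcripts also occur in another Oas gene, all of them in Oas1g, and 45.7% of those of Oas1g. How the authors split such reads is not given in the sources used here, so the separate values of Oas1a and Oas1g are uncertain.

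Oas1b and Oas1c lie head to head. Oas1b is the flavivirus resistance gene of mice and carries a premature stop in most laboratory strains, C57BL/6 included; the GENCODE M21 annotation types it as a polymorphic pseudogene. It was at 1.07 and 1.05 in Ezh1-null tamoxifen and 0.25 and 0.11 in Ezh1-null oil, and at -0.18 and -0.11 in Ezh1-present tamoxifen and -0.31 and -0.63 in Ezh1-present oil. No group of Oas1b overlaps another, and the Ezh1-null libraries of either treatment lie above the Ezh1-present ones.
Oas1c was at 0.45 and 0.44 in Ezh1-null tamoxifen and -0.51 and 0.11 in Ezh1-null oil, and at -0.55 and 0.28 in Ezh1-present tamoxifen and -0.11 and -0.13 in Ezh1-present oil. The last 3 groups overlap, so Oas1c has 1 group that stands apart. An antisense gene, Gm43069, overlaps Oas1c, and whether strand was used in counting is not given in the sources used here, so their reads cannot be told apart. Oas1c shares 9.82% of its 50-base stretches with other Oas genes, and Oas1b 1.17%.

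The Oas-like genes followed another order. Oasl2, which keeps synthetase activity in mice, was at 2.23 and 2.86 in Ezh1-null tamoxifen and -0.54 and -0.93 in Ezh1-null oil, and at 0.54 and 1.02 in Ezh1-present tamoxifen and -0.84 and -0.71 in Ezh1-present oil libraries. The oil groups of the 2 genotypes overlap for Oasl2, and each tamoxifen group lies above both. Oasl1, which lacks synthetase activity and is known in mice as an inhibitor of Irf7 translation, was at 1.14 and 1.39 in Ezh1-null tamoxifen and -0.45 and -1.98 in Ezh1-null oil, and at 0.30 and 0.53 in Ezh1-present tamoxifen and -0.30 and -0.37 in Ezh1-present oil. Its 2 Ezh1-null oil libraries are further apart than those of any other member and group, with Ezh1-null oil replicate 2 lowest. Whether that single lowest value lies at the floor cannot be told here. On the other strand, Gm13822 overlaps Oasl1, and Gm43068 overlaps Oas2, with the same limit as for Oas1c. None of the 50-base stretches of Oas2, Oas3, Oasl1 or Oasl2 transcripts occur in another Oas gene.

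After tamoxifen, the family was higher than after oil in Ezh1-null cells. Of the 8 genes, 6 rose, where 3.1% of all genes tested rose, and the median change over the 8 was 1.70, against 0.00 over all genes. Tamoxifen and oil libraries did not overlap for any of the 8, with tamoxifen higher, as for 24.5% of all genes. Oasl2 changed most, by 3.28 ± 0.28 (9.71-fold, adjusted p = 0.00928), which ranked 168 among the 18051 changes. Oas3 rose by 1.98 ± 0.17 (3.95-fold, adjusted p = 0.00884) and Oas1g by 1.79 ± 0.25 (3.47-fold, adjusted p = 0.032). Oas2 rose by 1.60 ± 0.21 (adjusted p = 0.0286), Oas1a by 1.16 ± 0.11 (adjusted p = 0.0126) and Oas1b by 0.88 ± 0.13 (1.84-fold, adjusted p = 0.0381).
Oasl1 had the second largest change, 2.48 ± 0.49, but missed the threshold (adjusted p = 0.07). Leaving out Ezh1-null oil replicate 1 gave a change of 3.24, and leaving out replicate 2 of that group gave 1.72. Oasl1 was called in each of these fits, in which the spread of that group is not counted. Oas1c differed by 0.65 ± 0.33 (adjusted p = 0.392). Without either Ezh1-null tamoxifen library 1 of the 8 was called, Oasl2 each time, and in a fit of the Ezh1-null libraries alone only Oas3 was called. Without either Ezh1-null oil or either Ezh1-present tamoxifen library, 4 of the 8 were called.

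With Ezh1 present, the tamoxifen changes were smaller, and Oas3 alone passed the threshold. Oas3 rose by 1.39 ± 0.17 (2.63-fold, adjusted p = 0.0428), so 1 of 8 members rose where 0.637% of all genes did. Tamoxifen libraries lay above oil libraries without overlap in 7 of the 8, against 28.5% of all genes, the exception being Oas1c at -0.02 ± 0.33 (adjusted p = 0.989). Oasl2 differed by 1.55 ± 0.28 (adjusted p = 0.0825), Oas1g by 0.77 ± 0.25 (adjusted p = 0.183), Oasl1 by 0.75 ± 0.49 (adjusted p = 0.443) and Oas2 by 0.72 ± 0.21 (adjusted p = 0.159). Oas1a differed by 0.50 ± 0.11 and Oas1b by 0.32 ± 0.13 (adjusted p = 0.111 and 0.255). The median over the 8 was 0.74, and 0.01 over all genes. Leaving out 1 library at a time gave Oas3 changes between 1.21 and 1.58, and the call held only without Ezh1-present tamoxifen replicate 1.

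**Figure D2:**
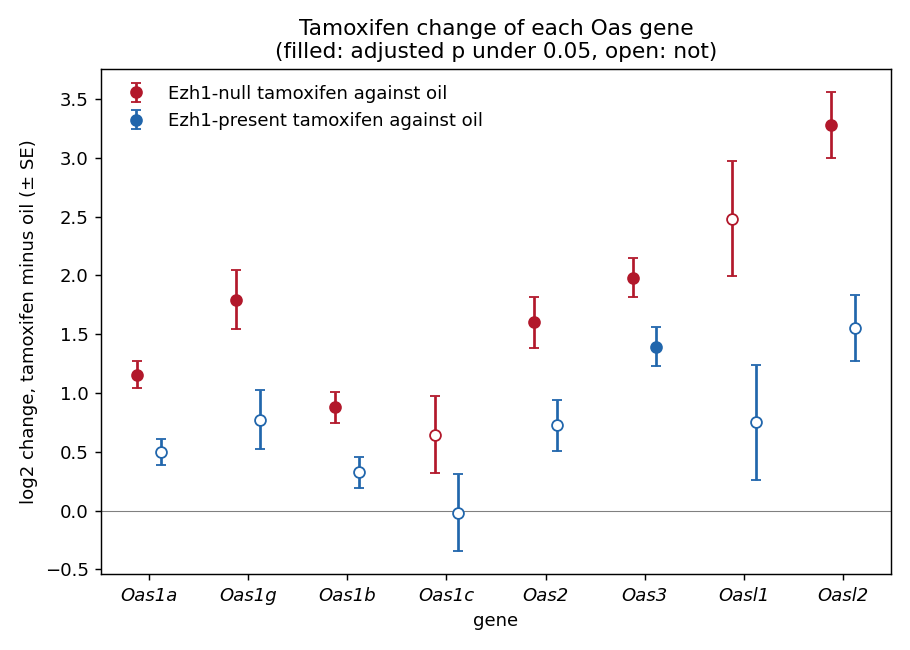
Log2 change, tamoxifen minus oil, with its standard error (y axis), of each Oas gene (x axis) in Ezh1-null cells (red, left) and Ezh1-present cells (blue, right); filled points have an adjusted p under 0.05 and n is 2 libraries per group. The red point lies above the blue one for all 8 genes, and filled points number 6 among the red and 1 among the blue.

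Whether the tamoxifen change differed between the genotypes was tested as an interaction. The Ezh1-null change exceeded the Ezh1-present one in all 8 genes, where 49.7% of all genes had an excess above 0, with a median excess of 0.77 on the log2 scale. limma called 0 of the 8 (0.321% of all genes were called in this direction), while 5 had an unadjusted p under 0.05 in this direction, against 8.9% of all genes. The 5 were Oasl2 (1.73 ± 0.40, adjusted p = 0.17), Oas1a (0.66 ± 0.16, adjusted p = 0.182), Oas1b (0.55 ± 0.19, adjusted p = 0.286), Oas2 (0.88 ± 0.30, adjusted p = 0.291) and Oas1g (1.02 ± 0.35, adjusted p = 0.292). Oasl1 had an excess of 1.73 ± 0.69 (adjusted p = 0.338), Oas1c of 0.66 ± 0.46 and Oas3 of 0.59 ± 0.24 (adjusted p = 0.541 and 0.34). A larger tamoxifen change without Ezh1 is therefore not shown for any member by this test.

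The genotypes were compared within each treatment. After tamoxifen, Ezh1-null cells were higher than Ezh1-present cells in 6 of the 8 genes (6.77% of all genes were higher), without overlap in all 8 (30.7% of all genes), with a median of 1.46. The 6 were Oas3 (1.96 ± 0.17, adjusted p = 0.00783), Oas2 (1.80 ± 0.21, adjusted p = 0.0148), Oasl2 (1.76 ± 0.28, adjusted p = 0.025), Oas1g (1.72 ± 0.25, adjusted p = 0.0213), Oas1b (1.20 ± 0.13, adjusted p = 0.0128) and Oas1a (1.01 ± 0.11, adjusted p = 0.0129). Oasl1 and Oas1c differed by 0.85 ± 0.49 and 0.58 ± 0.33 (adjusted p = 0.293 and 0.282). Without either Ezh1-null tamoxifen library or Ezh1-present tamoxifen replicate 1 the call held for Oas3 alone, in the fit of the tamoxifen libraries alone for none, and without Ezh1-present tamoxifen replicate 2 for 4. The Oasl2 call also ended without either Ezh1-present oil library.

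After oil, where Ezh2 is labelled as intact, Ezh1-null cells were higher in 3 of the 8 genes, among 12.5% of all genes. These were Oas3 (1.37 ± 0.17, adjusted p = 0.00659), Oas2 (0.93 ± 0.21, adjusted p = 0.0339) and Oas1b (0.65 ± 0.13, adjusted p = 0.024). Oas1g and Oas1a were at 0.70 ± 0.25 and 0.36 ± 0.11 (adjusted p = 0.0996 and 0.0748), which makes 5 genes without overlap, against 31% of all genes. Oasl2 differed by 0.04 ± 0.28 (adjusted p = 0.948), and Oasl1 by -0.88 ± 0.49 (adjusted p = 0.248), the one member with Ezh1-null libraries lower without overlap (34.7% of all genes). Oas1c differed by -0.08 ± 0.33. The Oas3 call held without any 1 library. Those of Oas1b and Oas2 ended without either Ezh1-null tamoxifen or either Ezh1-null oil library or Ezh1-present oil replicate 2. Without Ezh1-null oil replicate 1, Oasl1 was called lower, at -1.64.

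Set against the cells with both genes labelled as intact, the Ezh1-null tamoxifen cells had the largest differences. They were higher in 6 of the 8 genes, where 13.2% of all genes were higher, and did not overlap in any of the 8, against 33.8% of all genes. Oas3 was higher by 3.36 ± 0.17 (10.2-fold, adjusted p = 0.00196) and Oasl2 by 3.32 ± 0.28 (9.96-fold, adjusted p = 0.0038). Oas2 and Oas1g were higher by 2.53 ± 0.21 and 2.50 ± 0.25 (adjusted p = 0.00376 and 0.00512), and Oas1b and Oas1a by 1.53 ± 0.13 and 1.51 ± 0.11 (adjusted p = 0.00392 and 0.00311). These 6 calls held without any 1 library. Oasl1 and Oas1c differed by 1.60 ± 0.49 and 0.56 ± 0.33 (adjusted p = 0.0712 and 0.27).

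The 2 groups labelled as lacking a single gene were also compared, Ezh1-present tamoxifen minus Ezh1-null oil. Oasl2 was the one member called, higher in Ezh1-present tamoxifen cells by 1.52 ± 0.28 (adjusted p = 0.0218), where 12.3% of all genes were higher, and its call ended without either Ezh1-null oil library or Ezh1-present tamoxifen replicate 2. Oasl1 differed by 1.63 ± 0.49 (adjusted p = 0.069), and these 2 were the members with Ezh1-present tamoxifen higher without overlap, against 34.4% of all genes. The other 6 lay between -0.33 ± 0.13 for Oas1b and 0.14 ± 0.11 for Oas1a, and none passed the threshold. Oas3 differed by 0.02 ± 0.17 and Oas2 by -0.20 ± 0.21 (adjusted p = 0.949 and 0.528). The comparisons above share groups, so they are not independent of each other.

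Beyond the 8 members, the table holds 4 other Oas1 genes. Oas1h, at 120861422 to 120873505 between Oas1b and Oas1g, was at 4.01 and 3.57 in Ezh1-null tamoxifen and -0.88 and 0.59 in Ezh1-null oil, and at -1.05 and 0.14 in Ezh1-present tamoxifen and -0.14 and -0.45 in Ezh1-present oil libraries. The 3 lower groups overlap, and the 2 libraries of a group differed by 1.47 in Ezh1-null oil and 1.18 in Ezh1-present tamoxifen. Oas1h rose by 3.93 ± 0.61 after tamoxifen in Ezh1-null cells (15.3-fold, adjusted p = 0.0401), against -0.16 ± 0.61 in Ezh1-present cells (adjusted p = 0.911). The difference of these changes, 4.09 ± 0.86, was not called (adjusted p = 0.15). Oas1h was not followed through the other fits. It shares 0.411% of its 50-base stretches with other Oas genes, and its RefSeq window holds no GAAANNGAAA. Oas1f lay at the floor in all libraries. Oas1d rose above the floor in the 2 Ezh1-present oil libraries alone, at 1.78 and 1.86 on the normalized scale where the floor is 1, and Oas1e in 3 libraries of 3 groups. The commonest value above the floor ran from 1.49 to 2.48 between libraries, so these values likely come from few reads and no fold is given.

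The rest of the interferon pathway is given in the order in which it acts. Among type I interferon genes, 5 of the 18 listed were in the table and 4 were tested. Ifnb1, the interferon beta gene, lay above the floor in the 2 Ezh1-null tamoxifen libraries alone, at 1.83 and 2.18 on the normalized scale where the floor is 1. The commonest value above the floor was 2.13 and 2.18 in these libraries, and Ifnb1 lay no higher, so very few reads are likely behind it. No fold is given, and its p is not used because libraries at the floor cannot vary. The 5 tested receptor genes had a median change of -0.20 after tamoxifen in Ezh1-null and -0.29 in Ezh1-present cells, and none was called. Of the 6 receptor kinases and ISGF3 subunits, Irf9 rose in Ezh1-null cells, by 0.73 ± 0.10 (adjusted p = 0.0286). Stat2 differed by 0.04 ± 0.12 in these cells (adjusted p = 0.923). In Ezh1-present cells Irf9 and Stat2 differed by 0.33 ± 0.10 and -0.32 ± 0.12 (adjusted p = 0.161 and 0.22).

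Irf7, which amplifies interferon transcription, was at 2.15 and 2.48 in Ezh1-null tamoxifen and -0.19 and -0.61 in Ezh1-null oil, and at 0.19 and 1.07 in Ezh1-present tamoxifen and -0.82 and -0.87 in Ezh1-present oil libraries. It was the one called of 8 interferon regulatory factors, rising by 2.71 ± 0.33 in Ezh1-null cells (adjusted p = 0.022), with 1.47 ± 0.33 in Ezh1-present cells (adjusted p = 0.11). Of 6 feedback inhibitors, Usp18, which removes ISG15 from proteins and dampens receptor signalling, rose by 2.75 ± 0.32 in Ezh1-null cells (adjusted p = 0.0208). In Ezh1-present cells Usp18 differed by 1.60 ± 0.32 (adjusted p = 0.0937). A list of 8 genes covers the sensing of double-stranded RNA, the ligand of the Oas enzymes, and not all of them encode sensors. All 8 were above 0 in Ezh1-null cells (48.3% of all genes), with a median of 0.70. Zbp1 (2.10 ± 0.32) and Dhx58 (1.00 ± 0.13) rose (adjusted p = 0.0381 and 0.0273), where 3.1% of all genes did. In Ezh1-present cells 6 of the 8 were above 0 (median 0.63), as were 51.9% of all genes, and none was called.
Pde12, which degrades 2-5A, differed by -0.21 ± 0.11 in Ezh1-null and -0.01 ± 0.11 in Ezh1-present cells (adjusted p = 0.395 and 0.986). The 5 tested genes of the cGAS-STING pathway, which senses DNA, had medians of 0.06 in Ezh1-null and -0.13 in Ezh1-present cells, with no call. Of 28 other interferon-stimulated genes, 9 rose in Ezh1-null cells (median change 1.31) and 4 in Ezh1-present cells (median change 0.58). Of all genes, 3.1% rose in Ezh1-null and 0.637% in Ezh1-present cells. The 4 with the smallest p in Ezh1-null cells were Rsad2, which encodes the antiviral protein viperin (3.33 ± 0.20, adjusted p = 0.00563), Ifi27l2a (2.91 ± 0.19, adjusted p = 0.00647), Bst2, whose protein tethers budding virus to the cell (1.31 ± 0.15, adjusted p = 0.0207), and Xaf1 (1.78 ± 0.22, adjusted p = 0.0224). In Ezh1-present cells Rsad2 and Ifi27l2a also rose, by 2.50 ± 0.20 and 1.90 ± 0.19 (adjusted p = 0.0242 and 0.0319). Bst2 and Xaf1 differed there by 0.63 ± 0.15 and 0.21 ± 0.22 (adjusted p = 0.122 and 0.63). The interaction was called for none of these 4 genes (adjusted p from 0.132 to 0.287). The lists were chosen with results of these data known, so their counts are not independent evidence.

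**Figure D3:**
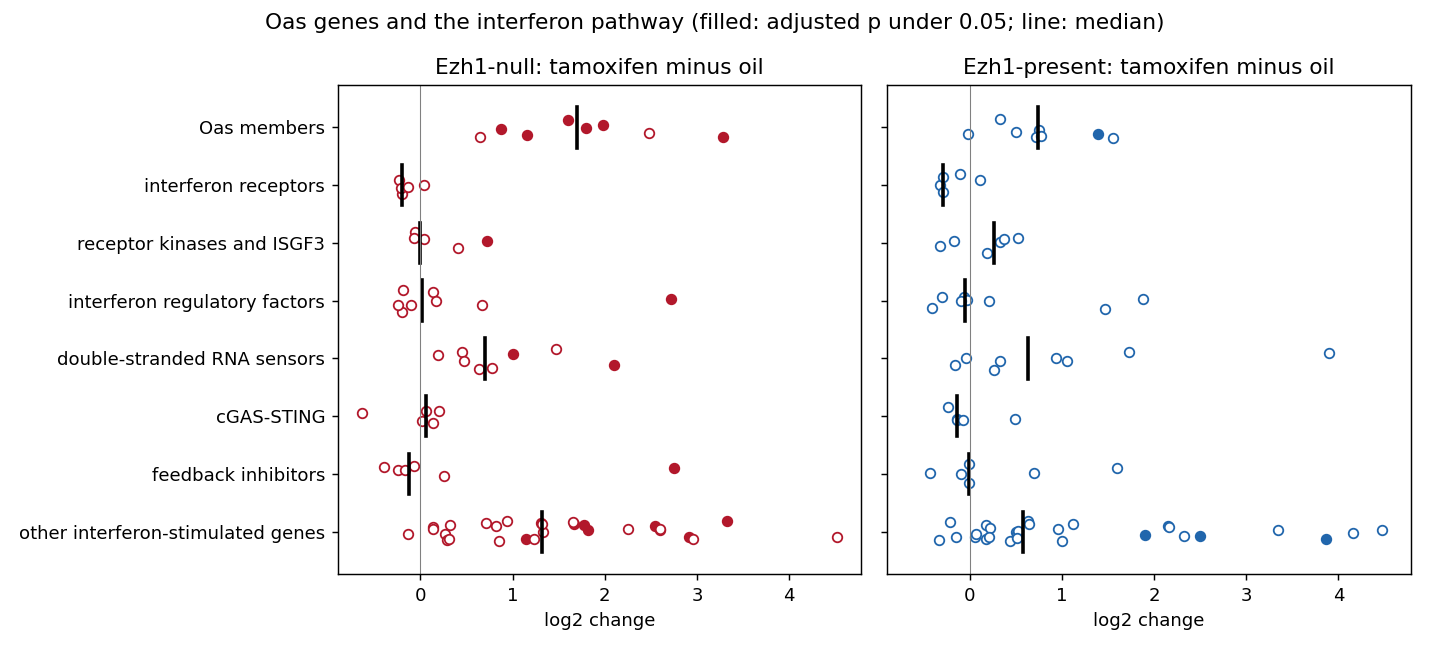
Log2 change, tamoxifen minus oil (x axis), of the 8 Oas genes and of 7 lists of the interferon pathway (rows), in Ezh1-null cells (left) and Ezh1-present cells (right); each point is a gene, filled where the adjusted p lay under 0.05, and the black line is the median of the row. The Oas row has medians of 1.70 and 0.74 and the other interferon-stimulated genes 1.31 and 0.58.

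Across the 8 libraries, Oas1g and Oas1a lay closest to the mean of the family, with root mean square differences of 0.258 and 0.259, and Oasl2, Oasl1 and Oas1c farthest (0.697, 0.647 and 0.627). Among 15508 other genes above the floor in all libraries, the 10 nearest to the family mean were Kcng2 (0.219), Thbs4 (0.242), Ifitm3 (0.256), Gbp2 (0.270), LOC101055758 (0.277), Inadl (0.281), Trim30b (0.284), Phospho1 (0.288), Zbp1 (0.296) and Xaf1 (0.299). Ifitm3, Gbp2, Zbp1 and Xaf1 are known interferon-stimulated genes. Kcng2 encodes a potassium channel subunit and Thbs4 an extracellular matrix protein. The likeness is over 8 libraries in 4 groups and is a description.

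The genes around the Oas clusters were examined in the same fit. All Oas genes, Oas1h included, were left out of this count. Of the 30 other tested genes within 250 kb, 2 were called after tamoxifen in Ezh1-null cells, where 3.4% of all genes were called in either direction. Trpv4 rose by 1.50 ± 0.25 (adjusted p = 0.0489) and 4930515G01Rik fell by 0.78 ± 0.11 on the log2 scale (adjusted p = 0.036). The 17 genes near Oasl1 and Oasl2 had a median change of -0.04, from -0.78 to 1.61, and the 13 near the Oas1, Oas2 and Oas3 genes one of 0.18, from -0.31 to 3.47. The highest was Dtx1, a Notch pathway gene beside Oas2, at 3.47 ± 0.84 (adjusted p = 0.111). In Ezh1-present cells limma called 0 of the 30 (0.903% of all genes), with medians of -0.17 and 0.01. For Ezh1-null minus Ezh1-present, 3 of the 30 were called in tamoxifen libraries (12.2% of all genes) and 9 in oil libraries (24.9% of all genes), with medians of -0.24 and -0.28. For Ezh1-null tamoxifen minus Ezh1-present oil 9 were called (23.4% of all genes), for Ezh1-present tamoxifen minus Ezh1-null oil 6 (22.5% of all genes), and for the interaction 0 (0.476% of all genes).

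**Figure D4:**
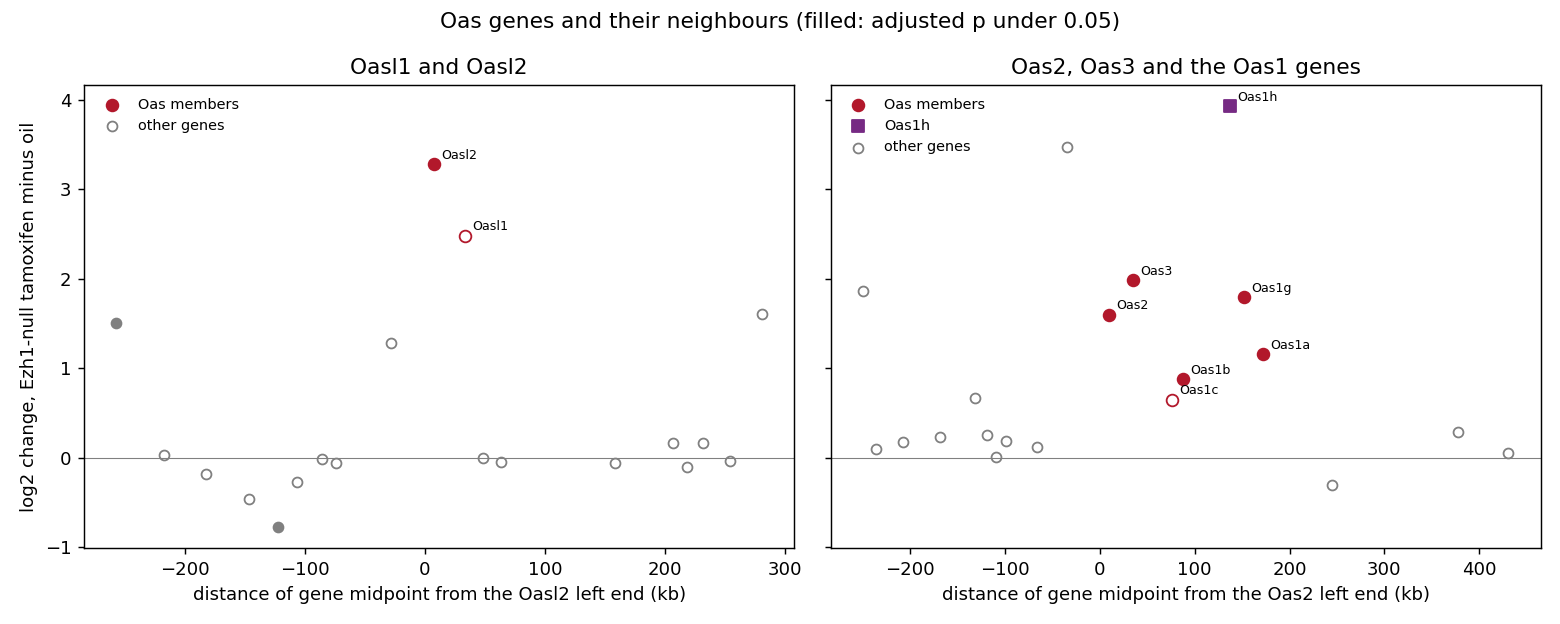
Log2 change in Ezh1-null cells, tamoxifen minus oil (y axis), of the Oas genes (red), Oas1h (purple square) and other genes within 250 kb (grey), by the distance of the gene's midpoint from the left end of Oasl2 (left panel) or Oas2 (right panel) in kb (x axis); filled points have an adjusted p under 0.05. The Oas genes lie between 0.65 and 3.28, and the other genes have medians of -0.04 (left) and 0.18 (right).

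Markers of other cell types also moved between the groups, and in bulk RNA fewer cells of a type and less RNA per cell cannot be told apart. The median of 10 T and NK cell markers was 0.27 and 0.61 in Ezh1-null tamoxifen and -0.56 and -0.96 in Ezh1-null oil, and 0.95 and 2.29 in Ezh1-present tamoxifen and -2.13 and -1.71 in Ezh1-present oil libraries. Their median change after tamoxifen was 1.24 in Ezh1-null and 3.81 in Ezh1-present cells. Of the 10, 8 and 10 were above 0 and 1 was called higher in each. Of all genes, 48.3% and 51.9% were above 0, and 3.1% and 0.637% were called higher. The difference between these changes was called for none of the 10. The 9 tested monocyte and macrophage markers had median changes of 0.34 in Ezh1-null and 1.59 in Ezh1-present cells, the 5 megakaryocyte markers 1.41 and 2.16, the 7 neutrophil markers -0.12 and 2.46, the 6 tested erythroid markers -0.67 and 2.18, and the 7 B cell markers -0.94 and 0.29.
For plasmacytoid dendritic cells, the best known producers of interferon, the median of 7 markers was 0.12 and 0.25 in Ezh1-null tamoxifen and -0.25 and -0.74 in Ezh1-null oil, and 0.31 and 0.25 in Ezh1-present tamoxifen and -0.20 and -0.22 in Ezh1-present oil libraries. Their median change was -0.19 in Ezh1-null cells, with 2 of the 7 called higher (3.1% of all genes), and 0.63 in Ezh1-present cells, with none. The 2 were Bst2, itself an interferon-stimulated gene and given above, and Klk1 (2.11 ± 0.20, adjusted p = 0.0122). The other 5 lay between -1.41 (Cox6a2) and 1.37 (Ly6d) in Ezh1-null cells, and all 7 between -0.15 (Tcf4) and 2.42 (Ly6d) in Ezh1-present cells. Siglech was at -1.22 ± 0.68 in Ezh1-null and 1.82 ± 0.68 in Ezh1-present cells (adjusted p = 0.434 and 0.222). The 9 leukaemic progenitor markers changed by a median of -0.34 in Ezh1-null and 0.24 in Ezh1-present cells. Of the listed markers, 1 for monocytes and macrophages and 2 for erythroid cells were not analysed here.
Markers also differed between the genotypes. For Ezh1-null minus Ezh1-present in oil libraries, 12.5% of all genes were higher and 12.4% lower. There the neutrophil markers had a median of 4.79 with 6 of 7 higher, and the B cell markers 3.28 with 4 of 7 higher. The progenitor markers had a median of 1.08 with 5 of 9 higher and 1 lower. The monocyte and macrophage markers had a median of -0.47, with 5 of 9 lower and 2 higher. The megakaryocyte markers were at -1.67 with 2 of 5 lower and 1 higher, and the erythroid markers at 1.70 with 1 of 6 higher. T and NK cell markers were at 0.42 with 3 of 10 higher. Plasmacytoid dendritic cell markers were at -0.16 with 2 of 7 lower and 1 higher. In tamoxifen libraries 6.77% of all genes were higher and 5.44% lower. The medians there were 2.12 for neutrophil markers with none called and 2.37 for B cell markers with 3 higher. They were 0.79 for progenitor markers with 5 higher and 2 lower, and -1.89 for monocyte and macrophage markers with 5 lower and 2 higher. T and NK cell and erythroid markers had medians of -1.14 and -0.71 with none called. The medians were -1.11 for megakaryocyte markers with 1 lower, and -0.31 for plasmacytoid dendritic cell markers with 2 lower.
For Ezh1-null minus Ezh1-present, Kit was higher by 0.79 ± 0.17 in tamoxifen and 1.26 ± 0.17 in oil libraries (adjusted p = 0.0453 and 0.00848). For Ezh1-null tamoxifen minus Ezh1-present oil, 13.2% of all genes were higher and 10.2% lower. The medians were 4.61 for neutrophil markers with 6 of 7 higher and 2.74 for T and NK cell markers with 4 of 10 higher. They were 1.87 for B cell markers with 2 of 7 higher, and 1.10 for progenitor markers with 5 of 9 higher and 2 lower. Monocyte and macrophage markers had a median of -0.85 with 2 of 9 higher and 2 lower. Plasmacytoid dendritic cell markers were at 0.35 with 1 of 7 higher and 1 lower. Megakaryocyte markers were at 0.20 with 1 of 5 lower, and erythroid markers at 1.31 with none called. Kit was higher by 0.99 ± 0.17 there (adjusted p = 0.0167). For Ezh1-present tamoxifen minus Ezh1-null oil, 12.3% of all genes were higher and 10.2% lower. B cell markers had a median of -3.78 with 4 of 7 lower, and progenitor markers -0.84 with 5 of 9 lower and 1 higher. Megakaryocyte markers were at 2.52 with 4 of 5 higher, and T and NK cell markers at 2.36 with 4 of 10 higher. Monocyte and macrophage markers were at 1.34 with 6 of 9 higher and 2 lower. Plasmacytoid dendritic cell markers were at 0.84 with 3 of 7 higher. Neutrophil and erythroid markers were at -2.23 and -0.14 with none called. The part of other cells in the Oas values was not tested.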

How the data were processed

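Gene-level RNA sequencing values of 8 libraries (4 groups of 2, by genotype and treatment in the labels) were taken from 2 tables of fold changes. Per the file headers, the authors kept raw data from the 20th percentile up and normalized the values. In the deposited tables these are log2 values centred on each gene's median over the libraries, with a floor, and each deposited fold change, given as a ratio and as a signed score, follows from them. The build is mm10 per the submitters' processing notes; no aligner, counter or scaling is named in the labels or headers, and total counts per library are not used, so depth is unknown.

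The smaller table holds 4576 of the 31574 rows, with identical values and 6 of the 8 members. The 18051 rows that had 2 or more libraries above the floor were fitted with limma 3.58.1 in R 4.3.3, with 1 coefficient per group over all 8 libraries, empirical Bayes moderation without trend (4 residual and 1.24 prior degrees of freedom) and Benjamini-Hochberg adjustment over all rows. The lowest value of a row counted as its floor if 2 or more libraries shared it within 2e-06. With 2 libraries against 2, the smallest exact permutation p is 0.333, so none was run. The fit was tested on simulated data. Tables were handled with pandas 2.3.3 under Python 3.11.15 and figures drawn with matplotlib 3.10.9.

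Members, gene lists and tests were chosen with earlier results of these data known. Named genes are all members, the other Oas1 genes, Ezh1 and Ezh2, Irf7, Irf9 and Stat2, up to 4 called genes per list, the 10 genes nearest to the family mean and all neighbours within 250 kb. Pde12, Dtx1 as highest neighbour, the plasmacytoid dendritic cell markers Klk1, Siglech, Cox6a2, Ly6d and Tcf4, and Kit were named after their values were seen. A few genes are not reported here. Shared 50-base stretches were counted over GENCODE M21 transcripts. Alternatives were other scalings, filters, moderation, a replicate block, fits of only the compared groups and leaving out each library.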

Additional observations from a re-analysis of the deposited data

How the results depend on the processing

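The count of called members stayed within 1.5 times its reported value in all 7 comparisons with library medians set to 0, with either other filter on low values and with robust moderation. Quantile normalization left 0 members called after tamoxifen in Ezh1-present cells, and a fit with the replicate number as a block also left 0 there. The block gave 4 in Ezh1-null cells, against 6 without it. Same-numbered libraries did not deviate together (correlations from -0.0624 to 0.0785), so the pairing rests on a shared number alone. Fits of only the compared groups, which have 2 residual degrees of freedom, gave 1 member for tamoxifen against oil in Ezh1-null and 0 in Ezh1-present cells. They gave 0 between genotypes in tamoxifen and 1 in oil libraries, and 0 between the groups with a single gene lost. For Ezh1-null tamoxifen minus Ezh1-present oil they gave 8, against 6 in the main fit, where 13.9% of all genes were called in the smaller fit. Leaving out 1 library at a time gave 1 to 6 members for tamoxifen against oil in Ezh1-null cells and 0 to 1 in Ezh1-present cells. It gave 1 to 7 between genotypes in tamoxifen libraries, 1 to 3 in oil libraries, and 0 to 1 between the single losses. A group left with 1 library is assumed to vary like the others.

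Signs turned only for members whose reported change was not called. Leaving out 1 library at a time gave Oas1c changes between -0.43 and 0.39 for tamoxifen against oil in Ezh1-present cells and between -0.39 and 0.23 for Ezh1-null minus Ezh1-present in oil libraries, where those of Oasl2 lay between -0.16 and 0.23. Between the single losses, Ezh1-present tamoxifen minus Ezh1-null oil, it gave Oas1c between -0.35 and 0.48, Oas1g between -0.13 and 0.27 and Oas3 between -0.17 and 0.21. Quantile normalization there gave -0.11 for Oas1c and -0.024 for Oas3. Causes were not tested. No alternative pseudocount could be tried, since the values were deposited on a centred log2 scale. Depth is unknown, so no counting error can be given for any value.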
